A study of Mus musculus with 24 samples.

Results

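The 10 genes followed here were the p53 targets and sestrins Trp53inp1, Sesn1, Sesn2, Sesn3, Cdkn1a, Mdm2, Ccng1, Btg2, Plk2, and Ddit4. They were chosen by name, 10 of the 56941 genes listed, with earlier results of these data in view. How many of them changed is therefore a description and not evidence about p53. All 10 passed the filter on low counts, as did 13315 genes in all.

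RNA came from 24 sheets of C2C12 muscle. C2C12 cells are mouse myoblasts that fuse and mature into contracting myotubes. All sheets, controls included, carried ChR2::tdTomato, a light-gated channel fused to a red fluorescent protein that lets blue light trigger contraction. They were grown on fibrin hydrogels, differentiated with IGF-1, and treated daily for 60 min with no light (Control) or with light pulses at 1, 4, or 10 Hz, with 6 biological replicates per condition. The tissue is 1 engineered line without nerve, vessel, or immune supply, and the study's text states that unstimulated sheets also twitched by themselves. The hour of RNA extraction relative to the last stimulation was not given in the sources used here.

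The transcription factor p53 is stabilized by DNA damage and other stresses and binds a DNA element made of a pair of half-sites. Among its targets are brakes on the cell cycle (Cdkn1a, Btg2), the ubiquitin ligase that degrades p53 itself (Mdm2), and cofactors of its activity (Trp53inp1). Sestrins and Ddit4 restrain mTORC1, the kinase complex that drives protein synthesis and growth in muscle. Many of these genes are also switched on without p53, by FoxO factors, ATF4, CREB, or hypoxia, so their mRNA is not a measure of p53 activity.

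The 10 genes were searched for the p53 element in the mouse genome GRCm39, from 3000 bases before to 1000 bases after the start of each canonical transcript of GENCODE M39. A match was the pair of 10-base half-sites of the p53 consensus with no spacer, with all 8 core letters intact. Mismatches were counted over the other 12 letters. The consensus reads the same on both strands. A match with at most 1 mismatch was found for 0.465% of 21093 protein-coding genes, and one with at most 2 for 2.3%. Of the 10 genes, 3 had a match that close, and their sites are shown because those genes differed in response. Capitals mark the core letters, and the sequences run 5′ to 3′ on the strand of the gene.
Cdkn1a site: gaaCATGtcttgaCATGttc
Ccng1 site: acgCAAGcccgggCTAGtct
Plk2 site: caaCATGcccgggCTTGcat

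The Cdkn1a site (chr17:29309902-29309921, GRCm39, plus strand) begins at position -2836 from the start and has 1 mismatch. The Ccng1 site (chr11:40645763-40645782, minus strand) lies in an intron at positions 356 to 375 after the start and also has 1 mismatch. The Plk2 site (chr13:110529416-110529435, plus strand) begins at position -1599 and has 2 mismatches. The best match of the other 7 genes had between 4 and 10 mismatches, which says only that these letters are not in this window.

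The 250 bases before the start are given for Trp53inp1, Btg2, and Plk2, the 3 genes with the largest increases. Capitals mark the cyclic AMP response element TGACGTCA and its half-element TGACG on either strand, which reads CGTCA when it lies on the other strand. A full element contains the half-element on both strands.
Trp53inp1 (chr4:11156162-11156411, plus strand): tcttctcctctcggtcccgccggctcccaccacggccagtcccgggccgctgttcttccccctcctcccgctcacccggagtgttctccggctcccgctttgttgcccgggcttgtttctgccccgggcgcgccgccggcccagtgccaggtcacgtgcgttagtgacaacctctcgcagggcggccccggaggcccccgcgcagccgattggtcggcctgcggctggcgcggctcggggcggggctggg
Btg2 (chr1:134006859-134007108, minus strand): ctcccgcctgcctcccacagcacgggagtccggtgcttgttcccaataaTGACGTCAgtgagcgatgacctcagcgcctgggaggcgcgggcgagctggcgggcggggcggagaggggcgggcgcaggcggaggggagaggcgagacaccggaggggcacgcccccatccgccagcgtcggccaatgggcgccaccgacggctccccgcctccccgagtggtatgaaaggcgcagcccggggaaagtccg
Plk2 (chr13:110530765-110531014, plus strand): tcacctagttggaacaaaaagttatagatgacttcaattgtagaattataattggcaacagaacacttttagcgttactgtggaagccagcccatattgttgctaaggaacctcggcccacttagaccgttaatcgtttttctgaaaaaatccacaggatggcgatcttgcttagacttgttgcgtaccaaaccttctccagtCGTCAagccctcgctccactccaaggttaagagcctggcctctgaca

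Among the 10 genes, Btg2 alone had a full TGACGTCA in this window, which 1.73% of the 21093 genes had. The half-element was found for Btg2, Plk2, and Sesn1, and for 18.1% of all genes. These matches describe letters and not binding.

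Libraries held between 8052369 and 18159144 estimated counts, and edgeR estimated a biological coefficient of variation of 14.8%. Levels are CPM, estimated counts divided by the library's TMM-scaled total and brought to a common total. Each log2(fold change) is the first condition minus the second, given with its standard error from edgeR's quasi-likelihood test, and Benjamini-Hochberg adjustment ran over all 13315 genes. A gene is called changed at an adjusted p under 0.05 and a log2(fold change) beyond 0.5 in either direction. Between genes, levels were compared only in TPM, which also divide by transcript length.

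Some libraries stood apart. The sources state that low-input samples were ribodepleted in place of poly(A) selection but do not name them. RNA without a poly(A) tail was higher at 1 and 4 Hz, where 3 of 3 such RNAs tested rose, and none of the 3 changed at 10 Hz. Rn7sk, the 7SK RNA, ranged from 2.22 to 8.13 CPM in Control, from 4.56 to 29.7 at 1 Hz, from 6.09 to 44.6 at 4 Hz, and from 3.19 to 11.0 at 10 Hz. The sum of Rn7sk, Rmrp, and Rpph1 lay above every Control and 10 Hz library in 1 Hz replicates 2, 3, 4, and 6 and in 4 Hz replicates 1, 3, and 4. The cutoff was the highest Control or 10 Hz library, so that only 1 and 4 Hz libraries could be left out. Leaving out these 7 kept 2 libraries at 1 Hz and 3 at 4 Hz. A call lost there is therefore no evidence that a gene did not change. For genes described below with their values, calls lost without these 7 libraries are given with both values. The mitochondrial share of counts lay above every Control and 10 Hz library in 1 Hz replicates 4 and 6 and 4 Hz replicates 3 and 6, where it was between 3.97% and 8.90%.

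All 12 myotube markers were expressed in every condition, with a median summed level of 16380 TPM in Control, 15330 at 1 Hz, 16010 at 4 Hz, and 15010 at 10 Hz. Single libraries went down to 11620 TPM at 1 Hz and to 15650 in Control. Of the 12 markers, 1 fell at 1 Hz, and 1 rose and 1 fell at 4 Hz. Markers of undifferentiated or reserve myoblasts summed to a median of 248 TPM in Control, 154 at 1 Hz, 110.3 at 4 Hz, and 238 at 10 Hz. Of these 5 genes, 2 rose and 2 fell at both 1 and 4 Hz. Fibroblast markers summed to 985 TPM in Control, 1325 at 1 Hz, 1252 at 4 Hz, and 1194 at 10 Hz, and 2 of 4 rose at 1 and 4 Hz. The 4 adipocyte and 4 endothelial markers summed to under 1 TPM in each library. The part of these shifts in the results below was not tested, and in bulk RNA fewer cells of a type cannot be told apart from less RNA per cell.

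Stimulation at 1 and 4 Hz was accompanied by higher Trp53inp1, Sesn1, Btg2, and Plk2 and by lower Ddit4, whereas Cdkn1a, the best known p53 target of the group, stayed within a narrow range at every frequency. At 1 Hz, 4 of the 10 genes rose, as did 7.19% of all genes, and 1 fell, as did 7.74% (14.9% changed in all). At 4 Hz, 5 rose, with Sesn2 added, beside 12.8% of all genes, and 1 fell, beside 12.3% (25.1% in all). At 10 Hz none of the 10 changed by edgeR's test, by DESeq2, or by limma on TPM, where 0.0376% of all genes changed by edgeR. At an unadjusted p under 0.05 edgeR gave 1 of the 10, Ccng1, at 10 Hz, beside 1074 of all 13315 genes. Since the genes were chosen with these results known, nothing is read from these shares.

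By the adjusted p alone, 7 of the 10 genes passed at 1 Hz, beside 37.3% of all genes, 7 at 4 Hz, beside 51.4%, and none at 10 Hz. The libraries of the 2 conditions did not overlap for 2 higher and no lower genes of the 10 at 1 Hz, beside 5.55% and 8.58% of all genes. At 4 Hz this held for 5 higher and no lower genes, beside 12.9% and 14.7%, and at 10 Hz for none, beside 1.64%. The 10 genes had a median log2(fold change) of 0.38 at 1 Hz (0.04 over all 13315 genes), 0.50 at 4 Hz (0.06), and 0.04 at 10 Hz (0.01). The 3 comparisons share the same 6 Control libraries.

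**Figure D1:**
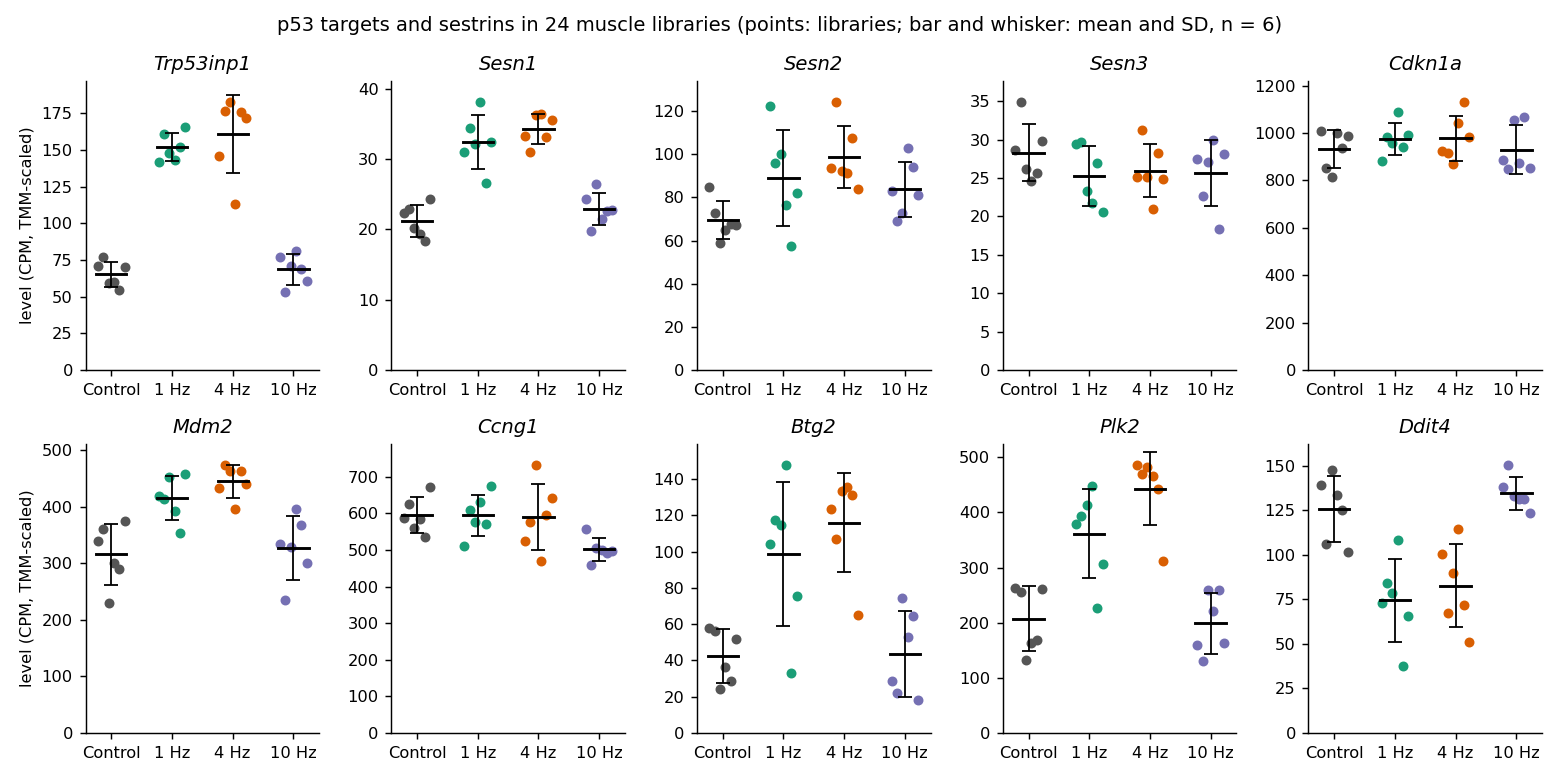
Level of each of the 10 genes in CPM (vertical axes, each from 0) in the 24 libraries by condition, with 1 point per library, the mean as a bar, and the SD as whiskers (n = 6). Trp53inp1 lies above every Control library in all 12 libraries at 1 and 4 Hz and at 10 Hz overlaps Control, with 2 libraries above and 1 below the Control range, while Cdkn1a and Ccng1 overlap between conditions.

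Trp53inp1 (ENSMUSG00000028211, chr4:11156412-11175230) encodes a stress-induced protein that works with p53 and in autophagy. Trp53inp1 ran from 54.4 to 77.0 CPM in Control, with a median of 65.2, and from 141.5 to 165.5 at 1 Hz, with a median of 150.1. Its range was 113 to 182 at 4 Hz, with a median of 174, and 53.2 to 81.1 at 10 Hz, with a median of 70.0. All 12 libraries at 1 and 4 Hz lay above all Control and all 10 Hz libraries. The log2(fold change) was 1.22 ± 0.11 at 1 Hz (edgeR adjusted p = 9.67e-09) and 1.30 ± 0.11 at 4 Hz (edgeR adjusted p = 1.57e-09). At 10 Hz it was 0.07 ± 0.11 (edgeR adjusted p = 0.95). The lowest 4 Hz library, replicate 4 at 113 CPM, also had the highest Rn7sk. Without the 7 libraries high in RNA lacking a poly(A) tail, the change was 1.18 ± 0.13 at 1 Hz and 1.39 ± 0.11 at 4 Hz.

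Sestrins bind the GATOR2 complex, which signals amino acid supply to mTORC1, and Sesn1 and Sesn2 release it when leucine is present. Sesn1 (ENSMUSG00000038332, chr10:41685931-41784423) is the form known from skeletal muscle and is also a FoxO target. Sesn1 ran from 18.3 to 24.3 CPM in Control, with a median of 21.2, and from 26.6 to 38.1 at 1 Hz, with a median of 32.2. Its range was 31.0 to 36.4 at 4 Hz, with a median of 34.5, and 19.8 to 26.5 at 10 Hz, with a median of 22.7. Neither 1 nor 4 Hz overlapped Control or 10 Hz. Sesn1 rose by 0.61 ± 0.09 on the log2 scale at 1 Hz (edgeR adjusted p = 7.91e-06) and by 0.69 ± 0.09 at 4 Hz (edgeR adjusted p = 7.48e-07). Without the 7 libraries the 1 Hz value was 0.45 ± 0.12 (adjusted p = 0.014), under the fold threshold, and at 4 Hz it was 0.62 ± 0.10.

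Sesn2 (ENSMUSG00000028893, chr4:132219335-132237815) is the stress-inducible sestrin, a target of ATF4 and NRF2 as well as p53. Sesn2 ran from 58.7 to 84.9 CPM in Control, with a median of 67.6, and from 57.7 to 122 at 1 Hz, with a median of 89.2. Its range was 83.9 to 124 at 4 Hz, with a median of 92.9, and 68.9 to 103 at 10 Hz, with a median of 81.9. The 1 Hz libraries spread from below the lowest Control to above the highest 10 Hz library, and 5 of 6 libraries at 4 Hz lay above every Control. Sesn2 rose at 4 Hz by 0.51 ± 0.14 (edgeR adjusted p = 0.00311). The 1 Hz value was 0.36 ± 0.14 (edgeR adjusted p = 0.0391), under the fold threshold, and the 10 Hz value was 0.27 ± 0.14 (edgeR adjusted p = 0.63). The call at 4 Hz sat at the threshold and was lost in 7 of 12 other settings, among them DESeq2 at 0.48 and limma on log2(TPM + 1) at 0.17, and in 6 of 12 fits that left out a library.

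Sesn3 (ENSMUSG00000032009, chr9:14186363-14244397) is the sestrin induced by FoxO factors. Its mean level was 28.3 CPM ± 3.75 (SD, n = 6) in Control, 25.3 ± 3.93 at 1 Hz, 25.95 ± 3.48 at 4 Hz, and 25.6 ± 4.30 at 10 Hz. Libraries of all conditions overlapped. Against Control the log2(fold change) was -0.17 ± 0.12 at 1 Hz (edgeR adjusted p = 0.27), -0.13 ± 0.12 at 4 Hz (edgeR adjusted p = 0.39), and -0.14 ± 0.12 at 10 Hz (edgeR adjusted p = 0.86). Of the 3 sestrins, Sesn3 alone passed the adjusted p at neither 1 nor 4 Hz in edgeR.

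In TPM, Sesn2 made up 63.7% ± 2.74 (SD, n = 6) of summed sestrin mRNA in Control, Sesn1 23.8% ± 1.94, and Sesn3 12.5% ± 1.62. At 1 Hz the shares were 62.5% ± 5.25, 29.2% ± 5.21, and 8.35% ± 1.41. At 4 Hz they were 63.2% ± 4.42, 27.5% ± 3.78, and 9.32% ± 1.18. At 10 Hz they were 67.3% ± 3.40, 22.9% ± 3.42, and 9.88% ± 1.45. Sesn2 thus remained the main sestrin in each condition, and the mean share of Sesn3 was lower than in Control at every frequency. At 1 Hz the share of Sesn3, at most 9.93%, lay below its lowest Control share of 11.12%. Its highest share was 11.14% at 4 Hz and 11.34% at 10 Hz, so that both overlapped Control.

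Ddit4 (ENSMUSG00000020108, chr10:59785491-59788492, also known as REDD1) restrains mTORC1 through the TSC complex and is induced by hypoxia, glucocorticoids, and energy stress. Ddit4 ran from 101.7 to 147.5 CPM in Control, with a median of 129, and from 37.6 to 108 at 1 Hz, with a median of 75.6. Its range was 51.2 to 114 at 4 Hz, with a median of 80.9, and 123 to 150.2 at 10 Hz, with a median of 132. At each of 1 and 4 Hz, 5 of 6 libraries lay below every Control. Ddit4 fell by 0.75 ± 0.18 on the log2 scale at 1 Hz (edgeR adjusted p = 0.00290) and by 0.61 ± 0.18 at 4 Hz (edgeR adjusted p = 0.00834). The 10 Hz value was 0.10 ± 0.18 (edgeR adjusted p = 0.96). The least reduced library of each condition, replicate 4 at 108 and at 114 CPM, was among the 7 high in RNA lacking a poly(A) tail. Without those 7 the change was -1.19 ± 0.20 at 1 Hz and -1.02 ± 0.16 at 4 Hz, over 1.5 times as large on the log2 scale.

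Btg2 (ENSMUSG00000020423, chr1:134002908-134015033) is an antiproliferative partner of the mRNA deadenylase complex and an immediate early gene. Btg2 ran from 24.1 to 57.6 CPM in Control, with a median of 44.0, and from 32.9 to 148 at 1 Hz, with a median of 109.5. Its range was 65.0 to 136 at 4 Hz, with a median of 127, and 17.95 to 74.2 at 10 Hz, with a median of 40.6. At 4 Hz no library overlapped Control, and at 1 Hz only replicate 5, at 32.9 CPM, did. Btg2 rose by 1.22 ± 0.36 on the log2 scale at 1 Hz (edgeR adjusted p = 0.0119) and by 1.45 ± 0.36 at 4 Hz (edgeR adjusted p = 0.00247), the largest standard errors of the 10 genes. The 10 Hz value was 0.02 ± 0.36, with a 95% interval from -0.73 to 0.78, which includes changes past 0.5 in both directions.

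Plk2 (ENSMUSG00000021701, chr13:110531015-110537379) is a polo-like kinase of centriole duplication that neurons induce on activity. Plk2 ran from 132 to 262 CPM in Control, with a median of 212, and from 226 to 448 at 1 Hz, with a median of 386. Its range was 312 to 486 at 4 Hz, with a median of 468, and 129.7 to 260.1 at 10 Hz, with a median of 192. As for Btg2, 1 Hz replicate 5 was the only library at 1 or 4 Hz inside the Control range. Plk2 rose by 0.80 ± 0.20 at 1 Hz (edgeR adjusted p = 0.00328) and by 1.10 ± 0.20 at 4 Hz (edgeR adjusted p = 1.14e-04), and its 10 Hz value was -0.06 ± 0.20.

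Within conditions, Btg2 and Plk2 were lowest in the same Control replicates 3, 4, and 5, which had the lowest Rn7sk of the controls at 2.22, 3.64, and 4.73 CPM. At 1 Hz, replicate 5 was the lowest in Btg2, Plk2, and Rn7sk (4.56 CPM), and at 10 Hz replicate 3 was the highest in Btg2 and Rn7sk. Without the 7 libraries high in RNA lacking a poly(A) tail, which left 2 libraries at 1 Hz and 3 at 4 Hz, Btg2 lost its call at both frequencies. Its change was then 0.68 ± 0.56 at 1 Hz (edgeR adjusted p = 0.46) and 1.21 ± 0.47 at 4 Hz (edgeR adjusted p = 0.060). Plk2 lost its call at 1 Hz, with 0.55 ± 0.32 (edgeR adjusted p = 0.28), and kept it at 4 Hz, with 0.95 ± 0.28 (edgeR adjusted p = 0.0172). At 4 Hz, replicates 2, 5, and 6 had Rn7sk inside the Control range, at 6.09, 7.47, and 7.91 CPM. Their Btg2 levels were 107, 131, and 65.0 CPM and their Plk2 levels 470.3, 443, and 312, where the highest Control had 57.6 and 262. Replicate 6 was the lowest of the 4 Hz libraries in both genes. The part of library preparation in these changes was not tested.

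**Figure D2:**
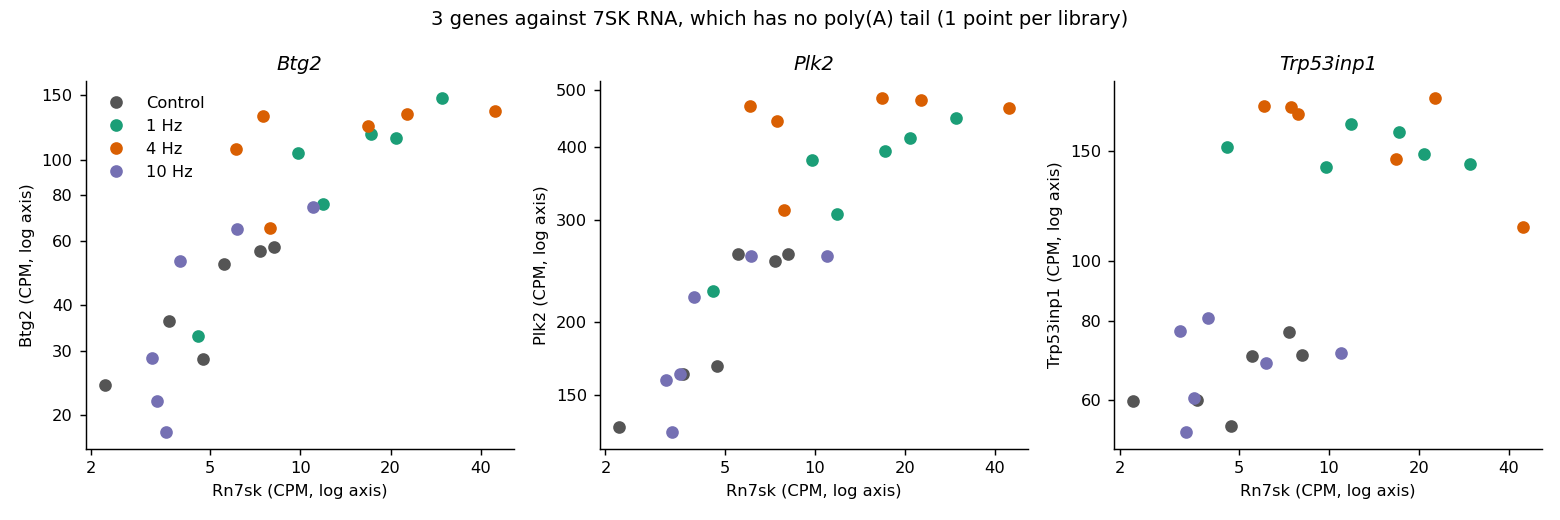
CPM of Btg2, Plk2, and Trp53inp1 against Rn7sk, the 7SK RNA, with 1 point per library, colour for the condition, and log axes in both directions. Within Control the 3 libraries lowest in Rn7sk are lowest in Btg2 and Plk2, while Trp53inp1 separates 1 and 4 Hz from Control and 10 Hz over the range of Rn7sk that these conditions share, up to 11.0 CPM.

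Cdkn1a (ENSMUSG00000023067, chr17:29309936-29319701) encodes p21, which blocks cyclin-dependent kinases and holds myotubes out of the cell cycle. Cdkn1a ran from 817 to 1007 CPM in Control, with a median of 963, and from 882 to 1087 at 1 Hz, with a median of 971. Its range was 868 to 1129 at 4 Hz, with a median of 953, and 847 to 1068 at 10 Hz, with a median of 880.0. The log2(fold change) was 0.06 ± 0.08 at 1 Hz, with a 95% interval from -0.10 to 0.22, and 0.07 ± 0.08 at 4 Hz, with an interval from -0.10 to 0.23. At 10 Hz it was -0.01 ± 0.08, from -0.17 to 0.16. These intervals do not reach the fold threshold in either direction.

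Mdm2 (ENSMUSG00000020184, chr10:117524780-117546730) is both a target and the main inhibitor of p53. Mdm2 ran from 230.2 to 374 CPM in Control, with a median of 319.8, and from 353 to 459 at 1 Hz, with a median of 417. Its range was 395 to 474 at 4 Hz, with a median of 451, and 235 to 397 at 10 Hz, with a median of 331. All 4 Hz libraries lay above every Control. The change was 0.39 ± 0.11 at 1 Hz (edgeR adjusted p = 0.00593) and 0.49 ± 0.11 at 4 Hz (edgeR adjusted p = 5.48e-04), in both cases past the adjusted p and under the fold threshold. At 10 Hz it was 0.05 ± 0.11. Mdm2 without the 7 libraries was 0.30 at 1 Hz (edgeR adjusted p = 0.25) and 0.51 at 4 Hz (edgeR adjusted p = 0.010). On the TPM scale it was 0.17 at both 1 Hz (limma adjusted p = 0.34) and 4 Hz (limma adjusted p = 0.29), and did not pass.

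Ccng1 (ENSMUSG00000020326, chr11:40639377-40646148) encodes cyclin G1, which helps Mdm2 restrain p53. Ccng1 ran from 535 to 673 CPM in Control, with a median of 587, and from 510.2 to 675 at 1 Hz, with a median of 593. Its range was 469 to 732 at 4 Hz, with a median of 586, and 458 to 557 at 10 Hz, with a median of 499.8. Control, 1 Hz, and 4 Hz overlapped, and 5 of 6 libraries at 10 Hz lay below every Control. The change was 0.00 ± 0.09 at 1 Hz and -0.01 ± 0.09 at 4 Hz. At 10 Hz it was -0.24 ± 0.09, with an unadjusted p of 0.00901 and an edgeR adjusted p of 0.42, which did not pass. The value without the 7 libraries was -0.25 (edgeR adjusted p = 0.065).

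The p53 matches printed above thus belong to Cdkn1a and Ccng1, which were called changed at no frequency, and to Plk2, which rose. Trp53inp1, Sesn1, Sesn2, and Btg2 also rose and had no match with fewer than 5 mismatches in the window searched. The search read letters in this window and not binding, and the part of p53 in these changes was not tested.

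**Figure D3:**
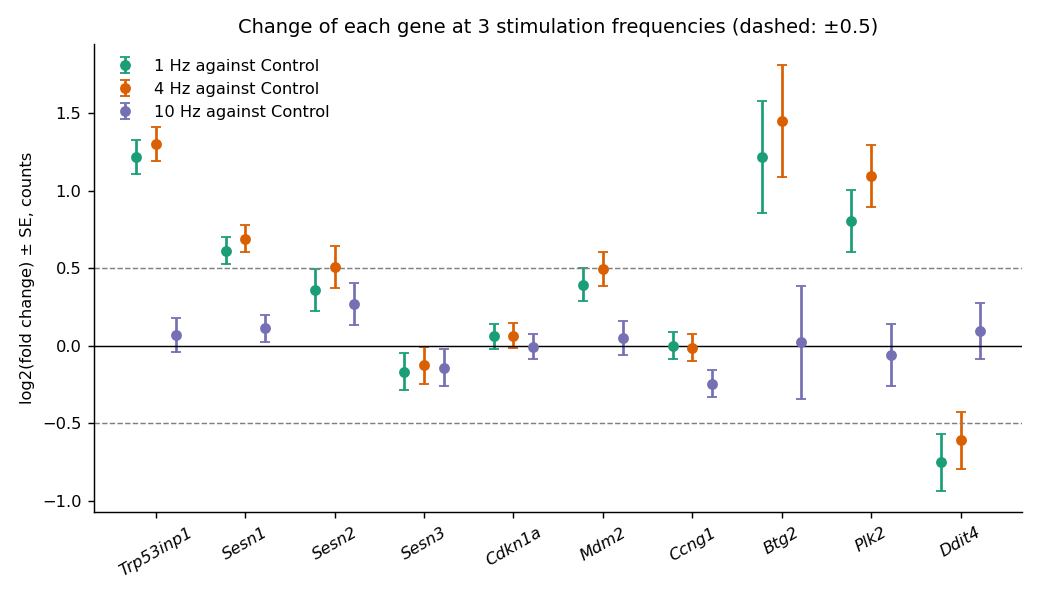
Log2(fold change) of each gene against Control on the count scale (vertical axis) at 1, 4, and 10 Hz, with points for the estimate and bars for ± 1 standard error, and dashed lines at the threshold of 0.5 in both directions. At 10 Hz all 10 estimates lie between -0.24 and 0.27.

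In Control the 10 genes ranked, per transcript length, from Cdkn1a at 864 TPM ± 62.0 (SD, n = 6) to Sesn3 at 6.20 ± 0.971. Between them came Ccng1 at 269 ± 19.8, Mdm2 at 178 ± 27.5, Plk2 at 129 ± 32.9, and Ddit4 at 121 ± 19.6. Lower in order were Sesn2 at 31.6 ± 3.22, Btg2 at 24.7 ± 7.99, Trp53inp1 at 18.7 ± 2.07, and Sesn1 at 11.8 ± 1.00. The ranges of neighbours overlapped for Mdm2 and Plk2, Plk2 and Ddit4, Sesn2 and Btg2, and Btg2 and Trp53inp1. The other neighbours in this order were separated in all 6 Control libraries. At 4 Hz Btg2 reached 54.1 TPM ± 12.3 and Trp53inp1 37.0 ± 8.05, beside Sesn2 at 36.5 ± 9.10.

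The unit moved every value. With limma on log2(TPM + 1), all genes together had a median of -0.14 at 1 Hz and -0.21 at 4 Hz on the log2 scale, and the 10 genes were lower than on the count scale by a median of -0.22 at 1 Hz and -0.32 at 4 Hz. Trp53inp1 rose on that scale by 0.97 at 1 Hz and 0.93 at 4 Hz, and Btg2, Plk2, and Ddit4 also kept their calls. Without a filter on low TPM, Btg2 at 1 Hz was 0.92 and did not pass (limma adjusted p = 0.083). Sesn1 was 0.40 at 1 Hz and 0.37 at 4 Hz, past the adjusted p and under the fold threshold, and Sesn2 at 4 Hz was 0.17 (limma adjusted p = 0.44). Cdkn1a was -0.14 at 1 Hz and -0.24 at 4 Hz on the TPM scale, the opposite sign from the count scale, with a limma adjusted p of 0.31 and 0.053. Ccng1 at 4 Hz was -0.34 on the TPM scale (limma adjusted p = 0.0048), under the fold threshold.

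**Figure D4:**
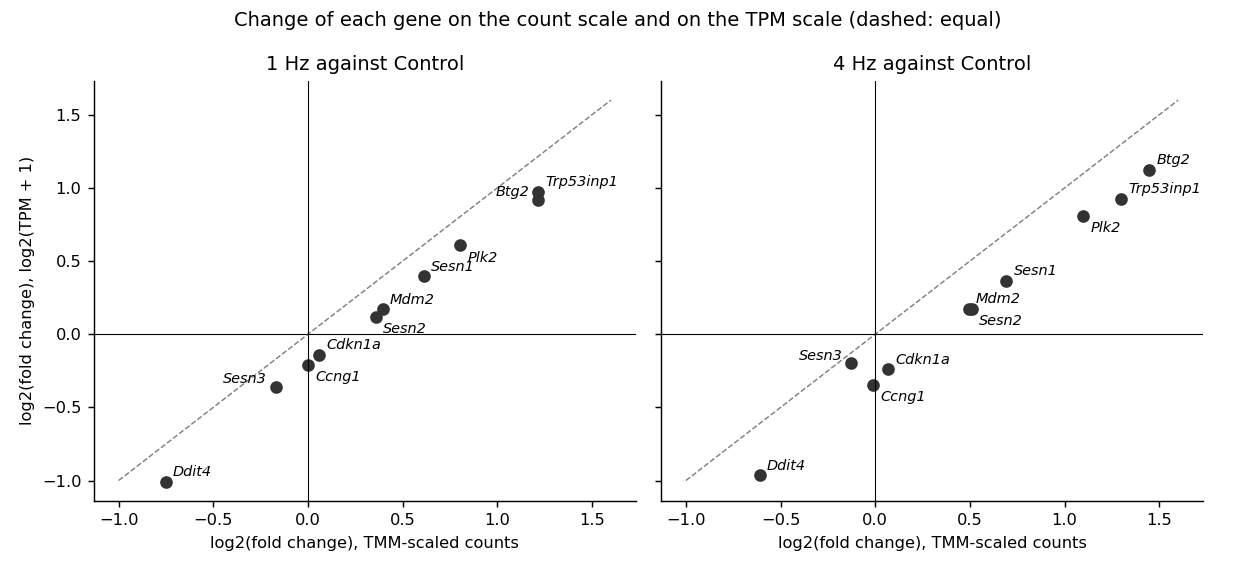
Log2(fold change) against Control of each gene on TMM-scaled counts (horizontal axis) and on log2(TPM + 1) (vertical axis) at 1 Hz (left) and 4 Hz (right), with a dashed line where both are equal. All 10 genes lie below the line in both panels, and the order from Ddit4 to the genes that rose is similar on both axes.

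Comparing 4 Hz with 1 Hz, none of the 10 genes changed by edgeR, DESeq2, or limma on TPM, and 0% of all genes changed by edgeR. None of the 10 had an unadjusted p under 0.05 in edgeR, beside 1465 of all 13315 genes. The difference of 4 Hz minus 1 Hz was 0.08 ± 0.11 for Trp53inp1, with a 95% interval from -0.14 to 0.30, and 0.08 ± 0.09 for Sesn1, from -0.10 to 0.26. For Btg2 it was 0.23 ± 0.35, from -0.50 to 0.96, for Plk2 0.29 ± 0.20, from -0.11 to 0.70, and for Ddit4 0.14 ± 0.18, from -0.24 to 0.52. A difference past 0.5 thus lay inside the interval for these 3 genes. Libraries of the 2 frequencies overlapped for all 10 genes, and 0.376% of all genes did not overlap.

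The 10 Hz libraries differed from those at 1 and 4 Hz in Trp53inp1, Sesn1, Btg2, Plk2, and Ddit4. Sesn2, called at 4 Hz against Control, was not called at 10 Hz against 4 Hz, with -0.24 ± 0.14 (edgeR adjusted p = 0.15). Against 1 Hz, 4 of the 10 genes were lower, beside 4.99% of all genes, and 1 was higher, beside 5.85% (10.8% in all). Against 4 Hz, 4 were lower, beside 10.6%, and 1 was higher, beside 10.6% (21.2% in all). By the adjusted p alone 7 passed in each comparison, beside 27.9% and 46.3% of all genes. Libraries did not overlap for 2 lower and 1 higher genes against 1 Hz, beside 2.67% and 5.03% of all genes (7.7% in all), and for 3 lower and 1 higher against 4 Hz, beside 8.1% and 10.8% (18.9% in all). The 10 Hz libraries are shared by both comparisons. Trp53inp1 was lower at 10 Hz than at 1 Hz, with -1.14 ± 0.11 (edgeR adjusted p = 5.90e-08), and than at 4 Hz, with -1.23 ± 0.11 (edgeR adjusted p = 7.07e-09). Sesn1 differed by -0.50 ± 0.09 from 1 Hz, at the edge of the fold threshold (edgeR adjusted p = 1.78e-04), and by -0.58 ± 0.09 from 4 Hz (edgeR adjusted p = 1.44e-05). The Sesn1 call against 1 Hz was lost in 11 of 12 other settings and in 8 of 12 fits that left out a library, and without the 7 libraries it was -0.34 (edgeR adjusted p = 0.084). All 6 libraries of each of these 2 genes at 10 Hz lay below every library at 1 and 4 Hz.

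Btg2 was lower at 10 Hz by -1.20 ± 0.36 than at 1 Hz (edgeR adjusted p = 0.0191) and by -1.43 ± 0.36 than at 4 Hz (edgeR adjusted p = 0.00352). The call against 1 Hz was lost without 1 Hz replicate 4, where the difference was -1.03 (edgeR adjusted p = 0.056), and with only the 2 groups in the fit, where it was -1.19 (edgeR adjusted p = 0.054). Plk2 differed by -0.86 ± 0.20 from 1 Hz (edgeR adjusted p = 0.00289) and by -1.16 ± 0.20 from 4 Hz (edgeR adjusted p = 9.70e-05). Without the 7 libraries named above, Btg2 differed by -0.67 from 1 Hz (edgeR adjusted p = 0.54) and -1.20 from 4 Hz (edgeR adjusted p = 0.074), and Plk2 by -0.62 from 1 Hz (edgeR adjusted p = 0.28).

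Ddit4 was higher at 10 Hz than at 1 Hz by 0.85 ± 0.18 (edgeR adjusted p = 0.00169) and than at 4 Hz by 0.71 ± 0.18 (edgeR adjusted p = 0.00357), with all 6 libraries above those of both frequencies. Mdm2 and Ccng1 at 10 Hz were also lower than at 1 and 4 Hz past the adjusted p and under the fold threshold, with -0.34 ± 0.11 and -0.44 ± 0.11 for Mdm2 and -0.25 ± 0.09 and -0.23 ± 0.09 for Ccng1.

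Trp53, the gene of p53 itself, was lower by -0.33 ± 0.08 at 1 Hz (edgeR adjusted p = 0.00271) and by -0.49 ± 0.08 at 4 Hz (edgeR adjusted p = 2.96e-05), past the adjusted p and under the fold threshold. At 10 Hz it was -0.07 ± 0.08. The 4 Hz value passed the fold threshold with DESeq2, at -0.52, and on the TPM scale, at -0.82. It also passed in 7 of 12 fits that left out a library, and all 6 libraries at 4 Hz lay below every Control. Among 16 tested genes of p53 and its regulators, 1 rose at 1 Hz and at 4 Hz and none fell. That gene, Rchy1, encodes the p53 ubiquitin ligase Pirh2 and rose by 0.73 ± 0.11 at 1 Hz and 0.90 ± 0.11 at 4 Hz. Without the 7 libraries its change at 1 Hz was 0.45, under the fold threshold.

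Other genes of the pathway were counted in 6 lists of textbook members, which cover p53 regulators, p53 targets, relatives of the 10 genes, and growth signalling genes. The lists were drawn up with earlier results of these data known. Of the 100 genes tested over all lists, 9 rose and 3 fell at 1 Hz, 15 rose and 7 fell at 4 Hz, and none changed at 10 Hz by edgeR. Thus 12 of 100 changed at 1 Hz and 22 of 100 at 4 Hz, where 14.9% and 25.1% of all genes tested did. Over all genes tested, 7.19% rose and 7.74% fell at 1 Hz, and 12.8% rose and 12.3% fell at 4 Hz. Each list below is to be read beside these shares. At most 2 genes per direction are given with values, those with the smallest p. Other genes that changed are named without values and were not run under the alternatives. For the 100 genes the median was 0.11 at 1 Hz and 0.10 at 4 Hz, beside 0.04 and 0.06 for all genes.

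Among 12 targets in arrest and DNA repair, none changed at 1 Hz, and at 4 Hz 3 rose and 1 fell. Fancc, of the Fanconi DNA repair pathway, rose by 0.57 ± 0.09, and Zmat3, an RNA-binding p53 target, by 0.54 ± 0.09. Gadd45a was the other gene that rose. Sfn, the 14-3-3 sigma protein, fell by 0.69 ± 0.26. Leaving out the 7 libraries, Fancc was 0.49 and Sfn -0.45 (edgeR adjusted p = 0.21), and neither was called. On the TPM scale Fancc was 0.12 and Zmat3 0.12, and neither passed. The median was 0.20 at 1 Hz and 0.23 at 4 Hz.

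Among 17 targets in cell death, 2 rose at 1 Hz and 4 at 4 Hz, and none fell. Bcl2l11, the FoxO-responsive death factor Bim, rose by 1.14 ± 0.12 at 1 Hz (edgeR adjusted p = 1.85e-07) and by 1.54 ± 0.12 at 4 Hz (edgeR adjusted p = 7.38e-10). Fas, a death receptor, rose by 0.87 ± 0.13 and 0.88 ± 0.13, and on the TPM scale its 4 Hz value of 0.46 was under the fold threshold. Bbc3 and Siva1 were the others that rose at 4 Hz. Bcl2l11 kept its calls without the 7 libraries, at 0.98 and 1.48. The median was 0.21 at 1 Hz and 0.23 at 4 Hz.

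Among 15 targets in metabolism and secretion, 1 rose and 2 fell at 1 Hz, and 2 rose and 2 fell at 4 Hz. Thbs1, a matrix glycoprotein, rose by 0.65 ± 0.18 at 1 Hz, and Cpt1c, a brain-type carnitine palmitoyltransferase relative, by 0.53 ± 0.13 at 4 Hz. Tigar, which lowers glycolytic flux, fell by 0.74 ± 0.13 at 1 Hz and by 0.94 ± 0.14 at 4 Hz. Sco2, an assembly factor of cytochrome c oxidase, fell by 0.57 ± 0.11 at 4 Hz. Rps27l also rose at 4 Hz, and Pank1 also fell at 1 Hz. With the 7 libraries left out, Tigar at 1 Hz was -0.43 (edgeR adjusted p = 0.069) and Cpt1c at 4 Hz 0.46, and on the TPM scale Thbs1 at 1 Hz was 0.39 and Cpt1c at 4 Hz 0.18, so that none of these was called. The median was 0.18 at 1 Hz and 0.30 at 4 Hz.

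Among 13 family relatives of the genes followed here, 3 rose at 1 Hz, and 4 rose and 1 fell at 4 Hz. Cdkn1b encodes p27, a relative of p21 and a FoxO target, and rose by 0.85 ± 0.12 at 1 Hz and 0.93 ± 0.12 at 4 Hz. Its 1 Hz value without the 7 libraries was 0.49, under the fold threshold. Ccng2, cyclin G2, also a FoxO target, rose by 0.52 ± 0.11 at 1 Hz and 0.74 ± 0.12 at 4 Hz, beside 0.00 and -0.01 for Ccng1. Ccng2 at 1 Hz without the 7 libraries was 0.18 (edgeR adjusted p = 0.34), and on the TPM scale it was 0.31 at 1 Hz and 0.45 at 4 Hz. Ddit4l also rose at 1 and 4 Hz, and Btg1 at 4 Hz. Plk1, the mitotic relative of Plk2, fell by 0.60 ± 0.23 at 4 Hz, and without the 7 libraries it was -0.50 (edgeR adjusted p = 0.13). Of 10 markers of cycling myoblasts, Plk1 among them, 5 fell and 1 rose at 4 Hz, where 12.3% and 12.8% of all genes did, and at 1 Hz 1 rose and none fell. The median of this list was 0.36 at 1 Hz and 0.19 at 4 Hz.

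Among 30 genes of amino acid and growth signalling downstream of sestrins and Ddit4, 2 rose and 1 fell at 1 Hz, and 1 rose and 3 fell at 4 Hz. Castor1, the arginine sensor that binds GATOR2, rose by 0.56 ± 0.19 at 1 Hz and 0.66 ± 0.19 at 4 Hz. Kptn, of the KICSTOR complex that holds GATOR1 at the lysosome, rose by 0.55 ± 0.16 at 1 Hz. Kics2, of the same complex, fell at 1 and 4 Hz and was the only gene of the list called lower at 1 Hz. Mios, a subunit of GATOR2, fell by 0.63 ± 0.11 at 4 Hz, and Prkaa1, a catalytic subunit of AMPK, fell by 0.57 ± 0.08. Leaving out the 7 libraries, Castor1 was 0.36 at 1 Hz (edgeR adjusted p = 0.43) and 0.49 at 4 Hz (edgeR adjusted p = 0.11), Kptn was 0.32 at 1 Hz (edgeR adjusted p = 0.38), and Prkaa1 was -0.48 at 4 Hz, under the fold threshold. On the TPM scale Castor1 was 0.21 and 0.22 and Kptn 0.23, and none of these passed. The median was -0.07 at 1 Hz and -0.02 at 4 Hz.

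**Figure D5:**
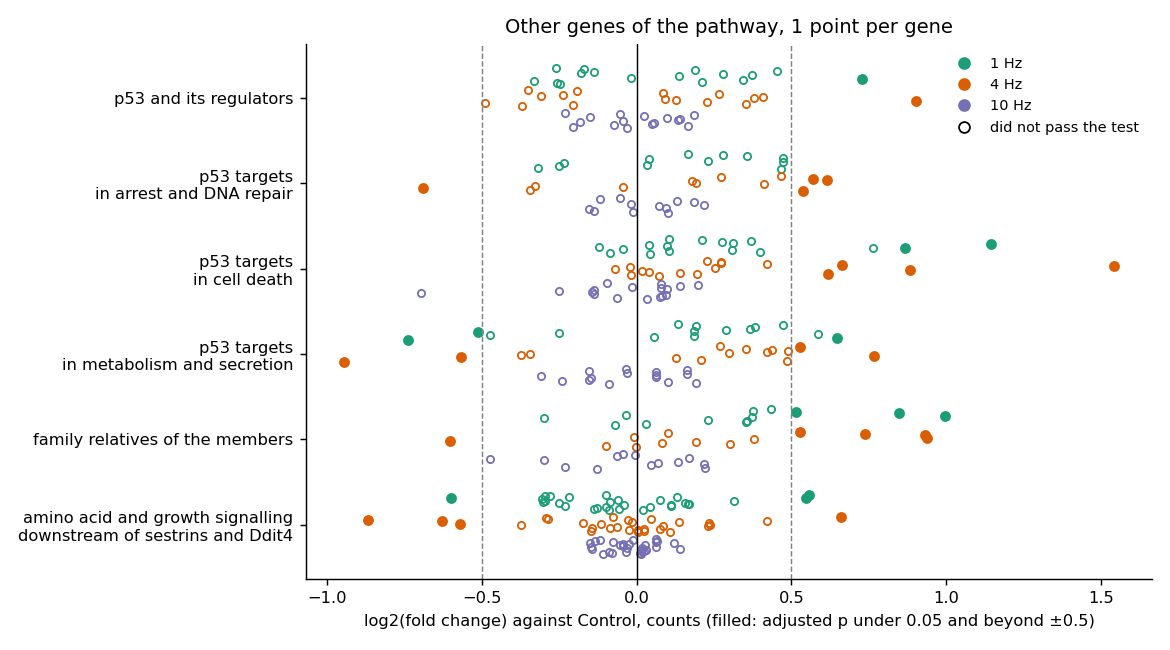
Log2(fold change) against Control on the count scale (horizontal axis) of the 100 tested genes in 6 lists (rows), with 1 point per gene at 1, 4, and 10 Hz, filled where the gene changed. No point at 10 Hz is filled, and in the list of growth signalling genes most points at each frequency lie between -0.5 and 0.5.

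For each gene, the 1 tested gene outside the group whose log2 CPM followed it most closely over the 24 libraries was noted as a description. These correlations include the differences between conditions and share the depth and preparation of each library. Trp53inp1 was followed most closely by Sgms1, a sphingomyelin synthase (Pearson r = 0.977), and Sesn1 by Pdp1, a phosphatase that activates pyruvate dehydrogenase (r = 0.956). Btg2 was followed by Ier5, an immediate early gene (r = 0.984), Plk2 by Ccn1, a secreted matricellular protein (r = 0.980), and Mdm2 by Slc19a2, a thiamine transporter (r = 0.981).

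The other 5 were followed less closely. Sesn2 was paired with Stk40 (r = 0.922), Ddit4 with Bhlhe40, a repressor of the clock and hypoxia systems (r = 0.889), Ccng1 with Nabp1 (r = 0.844), Sesn3 with Ubr3 (r = 0.824), and Cdkn1a with Car11 (r = 0.792). Sgms1 rose by 0.83 ± 0.08 at 1 Hz and 0.76 ± 0.08 at 4 Hz, and Pdp1 by 0.73 ± 0.08 and 0.89 ± 0.09. Bhlhe40 fell by 0.90 ± 0.17 at 1 Hz and by 0.79 ± 0.17 at 4 Hz. Ier5 rose by 1.10 ± 0.36 at 1 Hz and 1.35 ± 0.36 at 4 Hz, and Ccn1 by 1.55 ± 0.49 and 1.98 ± 0.50. Without the 7 libraries high in RNA lacking a poly(A) tail these calls were lost, with Ier5 at 0.53 (edgeR adjusted p = 0.57) and 1.07 (edgeR adjusted p = 0.085) and Ccn1 at 1.09 (edgeR adjusted p = 0.37) and 1.75 (edgeR adjusted p = 0.054).

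The study's text names a directional library kit, but the strand setting of the counting was not stated. Among the 10 genes, 6 share their locus with an antisense gene model (Sesn1, Sesn3, Cdkn1a, Mdm2, Ccng1, and Btg2). The same holds for 17 of the other 28 genes named by rule. Whether antisense reads were counted with those of these genes was not tested. Trp53inp1, Sesn2, Plk2, and Ddit4 overlap none.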

How the data were processed

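RNA of 24 C2C12 muscle sheets was sequenced by the authors from libraries made after poly(A) selection (per the labels, low-input samples were ribodepleted). Reads were quantified by the authors against Ensembl genes of GRCm39 in an nf-core workflow for RNA-seq. The submitters' processing notes name STAR, Salmon, BWA 0.7.12-r1039, and bedtools 2.25.0. The deposited estimated counts per gene are not normalized. The deposited TPM values are divided by transcript length by the authors' pipeline. RNA that needs no poly(A) tail, or RNA length, can move either unit between libraries.

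Estimated counts were rounded and tested with edgeR 4.0.16 in R 4.3.3 (filterByExpr with a minimum count of 10 and total of 15, TMM, robust quasi-likelihood F test, 1 fit with a mean per condition). Intervals are 95% intervals from the same test and its degrees of freedom. Depth ran from 8052369 to 18159144 counts per library. The biological coefficient of variation that edgeR estimated between libraries of a condition was 14.8%. No pair of libraries in a condition agreed within sampling noise, the lowest chi-square per degree of freedom being 4.83 over 60 pairs. Conditions came from the sample titles. The scripts were tested on simulated data.

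The 10 genes and all lists were chosen with earlier results of these data known. Named by rule, beside the 10 genes and Trp53, were at most 2 genes per list and direction. These changed at 1 or 4 Hz with the smallest p. The gene closest to each member by Pearson r of log2 CPM (prior count 2) was also named. Other list genes that changed were named without values. Alternatives were RLE and upper-quartile factors, leaving the low-count filter out or raising it to 50 counts in 6 libraries, a fit of the compared groups alone, the replicate block, DESeq2 1.42.0, limma 3.58.1 on log2(TPM + 1) and log2(TPM + 0.1), no fold threshold, leaving out each library, and leaving out libraries high in RNA lacking a poly(A) tail or in mitochondrial counts.

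Of the marker lists, macrophage genes (1 of 4 tested) and neuron genes (2 of 4 tested, 1 lower at 1 and 4 Hz) are not described further. Gene positions and sequences came from GRCm39 and GENCODE M39, which held 98.9% of the gene identifiers.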

Additional observations from a re-analysis of the deposited data

Results flagged for a closer look

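Of 152 groups of 6 libraries tested for a library that stood apart from the other 5 by Dixon's test at its 95% critical value, 4 passed, of which 1 was among the 40 groups of the p53 targets and sestrins. Chance gives about 1 in 20. Plk2 at 4 Hz was lowest in replicate 6, at 312 CPM, where the nearest other library had 443. The lowest Btg2 at 4 Hz, 65.0 CPM, was in the same library. Cpt1c at 10 Hz was highest in replicate 5, at 16.7 CPM, and Mios at 1 Hz was highest in replicate 5, at 19.9 CPM. Stk40 in Control was highest in replicate 1, at 49.4 CPM. The cause of these values was not tested.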

How the results depend on the processing

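The direction of Trp53inp1, Sesn1, Btg2, Plk2, and Ddit4 against Control at 1 and 4 Hz held under every alternative run. At 1 Hz, 5 genes of the group changed, and 3 did with limma on log2(TPM + 1) without a filter. Without the libraries high in RNA lacking a poly(A) tail, a choice made after seeing the data, 2 did. That fit kept 2 libraries at 1 Hz and 3 at 4 Hz. The share of all genes changed in each setting is not given in this section, so the counts are not set against it. A lower count can therefore not be told apart from fewer calls over all genes. Leaving out each library gave 5 to 5 genes at 1 Hz, 5 to 7 at 4 Hz, 0 to 0 at 10 Hz, and 5 to 6 for 10 Hz against 4 Hz. Between 10 and 1 Hz, 5 changed, and 3 did with only the 2 groups in the fit, 3 with limma on log2(TPM + 1) without a filter, 2 without the libraries high in RNA lacking a poly(A) tail, 3 without those with a high mitochondrial share (also chosen after seeing the data), and 3 to 5 when a library was left out (3 without 1 Hz replicate 4). Mdm2 at 4 Hz passed the fold threshold in 6 alternatives, for example at 0.53 with upper-quartile factors. Without a fold threshold 7 genes passed at 1 Hz and 7 at 4 Hz. Castor1, Kptn, Plk1, and Sfn gave no value under the filter of 50 counts in 6 libraries.

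The signs that turned all belong to values that did not pass. With limma on log2(TPM + 1), log2(TPM + 0.1), and log2(TPM + 1) without a filter, in that order, the value was -0.14, -0.14, and -0.14 for Cdkn1a at 1 Hz, -0.24, -0.24, and -0.24 for Cdkn1a at 4 Hz, and -0.21, -0.21, and -0.21 for Ccng1 at 1 Hz. In the same order it was -0.10, -0.11, and -0.10 for Btg2 at 10 Hz, -0.048, -0.049, and -0.048 for Trp53inp1 at 4 Hz minus 1 Hz, and -0.032, -0.034, and -0.032 for Sesn1 at 4 Hz minus 1 Hz. Ccng1 at 1 Hz was also -0.0091 with RLE factors, -0.030 without a filter, -0.0071 with a strict filter, and -0.0090 with DESeq2, and at 4 Hz it was 0.020 with upper-quartile factors. Without the libraries high in RNA lacking a poly(A) tail, Cdkn1a at 1 Hz was -0.025 and Ccng1 at 1 Hz -0.13. Without those with a high mitochondrial share, Ccng1 at 1 Hz was -0.059 and Trp53inp1 at 4 Hz minus 1 Hz -0.010. When a library was left out, Btg2 at 10 Hz ran from -0.20 to 0.19, Plk2 from -0.16 to 0.040, Mdm2 from -0.022 to 0.13, and Cdkn1a from -0.051 to 0.022. Ccng1 ran from -0.066 to 0.042 at 1 Hz and from -0.11 to 0.027 at 4 Hz. The cause of these differences was not tested.

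The replicate numbers did not pair the libraries. The median correlation of deviations over 36 same-numbered pairs was -0.02, and 3 pairs were over 0.1. With the replicate block, 5 genes of the group changed at 1 Hz, 6 at 4 Hz, 0 at 10 Hz, 0 between 4 and 1 Hz, 4 between 10 and 1 Hz, and 5 between 10 and 4 Hz, and Btg2 at 10 Hz was -0.061.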
